A study of Mus musculus with 6 samples.

Results

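The proteins of the cytosolic ribosome were followed in 4T1 cells through the transcripts that encode them. Members were the rows of a gene expression table whose symbol begins with Rpl or Rps and a digit, together with Rplp0, Rplp1, Rplp2, Rpsa and Fau, with a mean of at least 1 TPM (transcripts for each 1e+06 transcripts) over all libraries. Symbols that hold "-ps" and the Rps6k kinases were left out. Of 56448 rows, 95 had such a name and 88 reached the minimum. The large subunit had 50 of them and the small subunit 37. Rps19bp1, which is taken by its name but encodes a binding partner of a ribosomal protein, was counted apart. By name, 78 members were the core genes of the ribosome (46 large, 32 small) and 10 were like-named copies or partners. Just inside the minimum lay Rps3a3 with a mean of 1.47 TPM and just outside it Rps23rg1 with 0.103 TPM. Rps4l, Rpl32l and Rpl10l were listed at 0.

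4T1 is a line from a mouse mammary carcinoma, here grown in medium with fetal bovine serum. The series describes a line with stable lentiviral knockdown of the microRNA miR-9 and a control group. There were 3 libraries labelled LV2 and 3 labelled in9. The labels neither spell out these names nor say which one is the control, so each difference is given as in9 minus LV2. All 6 libraries share the line and its medium, and the sources used here do not say whether a group is 1 clone or a pool of infected cells. These messenger RNA libraries give no reading of mature microRNA, so the labels were not checked against miR-9 itself. No label says that the replicates were separate cultures. The p-values thus refer to the spread among these 6 libraries alone, and that spread may be technical.

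The table gives TPM without read counts, so the depth of each library is unknown. Between 20123 and 20538 genes were above 0 in a library. All 6 epithelial markers (Krt8, Krt18, Krt7, Krt19, Epcam and Cdh1) had a mean of at least 1 TPM, with a summed level of 2343 to 2397 TPM across the LV2 libraries and of 2242 to 2299 TPM across the in9 libraries. The 4 leukocyte markers summed to 0.17 TPM or less in every library. The 3 endothelial markers summed to 1.68 to 1.86 TPM across the LV2 libraries and 1.96 to 2.11 TPM across the in9 libraries, nearly all of it Cdh5. The 4 fibroblast markers summed to 4.58 to 6.52 TPM across the LV2 libraries and 7.78 to 8.31 TPM across the in9 libraries, nearly all of it Pdgfra, with Dcn, Col1a2 and Lum at or near 0. Their part in the results was not tested. On the first principal component of all tested genes LV2 replicates 1, 2 and 3 scored -6.98, -22.0 and -22.2. In9 replicate 1 scored -2.70, between LV2 replicate 1 and the other in9 libraries at 26.1 and 27.8. Replicate 1 of each group thus lay apart from its group, toward the other group. The main results are given with and without in9 replicate 1. It was singled out from these same data, so p-values and calls without it are descriptions and no independent support.

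A ribosome joins a small subunit, which reads the messenger RNA, to a large subunit, which forms the peptide bond. Each subunit is built in the nucleolus from ribosomal RNA and many different proteins, nearly all needed in 1 copy per particle. The messengers of these proteins begin with a run of pyrimidines after a first C, the terminal oligopyrimidine (TOP) tract, through which their translation is held back together when the kinase mTOR is inactive. Many of the genes also carry small nucleolar RNAs in their introns. In growing tumour cells ribosomal protein messengers are among the most abundant of all.

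The start sites are shown first, because the tract is what these genes are known to share and the rule did not use it. RefSeq promoters (GRCm38.p6) were found for 65 members. A C at the annotated start followed by at least 4 C or T on the transcribed strand was present in 15 of them (23.1%), against 3.12% of 9188 tested genes with a promoter and 3.01% of all 27025. It was present in 7 of 38 large and 8 of 26 small subunit genes. With the start allowed to lie up to 10 bases to either side, 38 of 65 members (58.5%) had such a tract, against 37.3% of the tested genes. The windows below run from 10 bases before the start to 20 bases from it, 5′ to 3′, with the tract in capitals, for the members with a tract that are described further on. Rplp0 and Rpl10, also described there, are shown as members in which these letters were not found at the annotated start.
Fau (chr19:6057937-6057966, plus strand): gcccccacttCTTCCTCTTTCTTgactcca
Rpl14 (chr9:120571507-120571536, plus strand): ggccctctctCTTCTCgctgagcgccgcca
Rpl35a (chr16:33056472-33056501, plus strand): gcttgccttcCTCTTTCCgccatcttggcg
Rplp2 (chr7:141447641-141447670, plus strand): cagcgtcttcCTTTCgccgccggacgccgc
Rps15a (chr7:118116128-118116157, minus strand): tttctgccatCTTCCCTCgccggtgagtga
Rps18 (chr17:33955646-33955675, minus strand): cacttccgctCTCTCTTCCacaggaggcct
Rps27 (chr3:90213629-90213658, minus strand): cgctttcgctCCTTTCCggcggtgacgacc
Rps27rt (chr9:114982720-114982749, minus strand): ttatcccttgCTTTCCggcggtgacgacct
Rps6 (chr4:86857348-86857377, minus strand): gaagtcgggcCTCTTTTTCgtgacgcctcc
Rplp0 (chr5:115559457-115559486, plus strand): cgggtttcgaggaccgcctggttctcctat
Rpl10 (chrX:74270806-74270835, plus strand): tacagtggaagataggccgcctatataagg

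Matches to the seed of miR-9 were rare in the members. The mature microRNA, from RefSeq, is given with its seed (bases 2 to 8) in capitals.
mmu-miR-9-5p: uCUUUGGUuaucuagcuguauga
A site was counted where the longest annotated 3′ UTR held ACCAAAG, which pairs with bases 2 to 8, or CCAAAGA, which pairs with bases 2 to 7 and adds an A. The overlap of both, ACCAAAGA, was counted once, and the sense strand alone was searched. Of 84 members with an annotated 3′ UTR 3 had a site (3.57%), against 22.2% of 10952 tested genes. The median 3′ UTR was 156 bases long in the members and 1167 bases in the tested genes. All 4 sites are shown with the match in capitals (GRCm38, transcribed strand).
Rps20 site 1 (chr4:3833903-3833932, minus strand): ctaatagatgtCCAAAGActagtgtatgaa
Rps20 site 2 (chr4:3832584-3832613, minus strand): acctagtaattACCAAAGgcattgaagcca
Rps24 (chr14:24496249-24496278, plus strand): cctgctccagcCCAAAGAtttattacaaat
Rpl13a (chr7:45125856-45125885, minus strand): gggaagtggggACCAAAGgttccttaggca
The log2 fold changes of these genes were -0.56 in Rps20, -0.23 in Rps24 and -0.23 in Rpl13a. The Rps20 and Rps24 sites lie in UTRs of 3167 and 1173 bases, which belong to the longest annotated isoform, and the table does not tell isoforms apart.

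As a group the members held a lower part of the messenger pool in the in9 libraries, most of all in in9 replicates 2 and 3. The 88 members made up 12.9%, 13.5% and 13.6% of all TPM in the LV2 libraries and 12.6%, 10.6% and 10.8% in the in9 libraries. The group means were 13.3% ± 0.369 in LV2 and 11.3% ± 1.11 in in9 (SD, n = 3). The groups did not overlap, but in9 replicate 1 lay just below the lowest LV2 library and well above the other in9 libraries. The in9 mean was 10.7% without in9 replicate 1. In bulk RNA fewer cells of a type and less RNA per cell cannot be told apart, and TPM add up to a fixed total, so a share also depends on every other transcript.

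Transcripts of the mitochondrial chromosome had their highest share in the same in9 libraries. Their part of all TPM was 5.90%, 5.97% and 6.01% in the LV2 libraries and 6.42%, 7.64% and 7.49% in the in9 libraries, and mt-Atp8 alone stood at 33678, 44251 and 43554 TPM in the in9 libraries against 31728 to 32439 TPM in LV2. With the mitochondrial transcripts removed and the rest rescaled, the members still held 14.2% in LV2 and 12.2% in in9, and their median log2 fold change was -0.20.

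No single member passed the test. In limma on log2(TPM + 1) over all 13406 genes with a mean of at least 1 TPM, 0 of 88 members were called lower and 0 higher at an adjusted p under 0.05, where 0.194% of all tested genes were called lower and 0.821% higher. At an unadjusted p under 0.05, 68 members were lower and 0 higher, against 5.86% and 13.6% of all tested genes. The log2 fold change was negative in 85 members, against 36.3% of all genes, and the median was -0.22 in the members and 0.06 over all genes. In 61 members every in9 library lay below every LV2 library, against 8.08% of all genes. The smallest adjusted p of any member was 0.0639 (Rpl14). Without in9 replicate 1, 70 members were called lower and 0 higher, against 3.68% and 6.77% of all genes. The choice of that library came from these same data, so these calls are descriptions. Without any other single library the count was 0, and the 68 at an unadjusted p became 33 and 29 without LV2 replicates 2 and 3 (3.75% and 4.13% of all genes) and 30 and 32 without in9 replicates 2 and 3 (4.04% and 4.06%). With library weights 72 were called lower, against 3.9% of all genes. The weights were estimated from these same libraries, so these calls are descriptions too. After quantile normalization 44 were lower at an unadjusted p under 0.05, against 9.17%.

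Seen library by library, in9 replicate 1 stood closer to LV2 than to the other in9 libraries. On the log2(TPM + 1) scale the median member lay at -0.05, 0.02 and 0.03 from the LV2 mean in LV2 replicates 1, 2 and 3. It lay at -0.08, -0.32 and -0.28 in in9 replicates 1, 2 and 3. Below the lowest LV2 value were 62, 86 and 82 of the 88 members in these in9 libraries, against 28.6%, 21.7% and 21.1% of all tested genes.

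**Figure D1:**
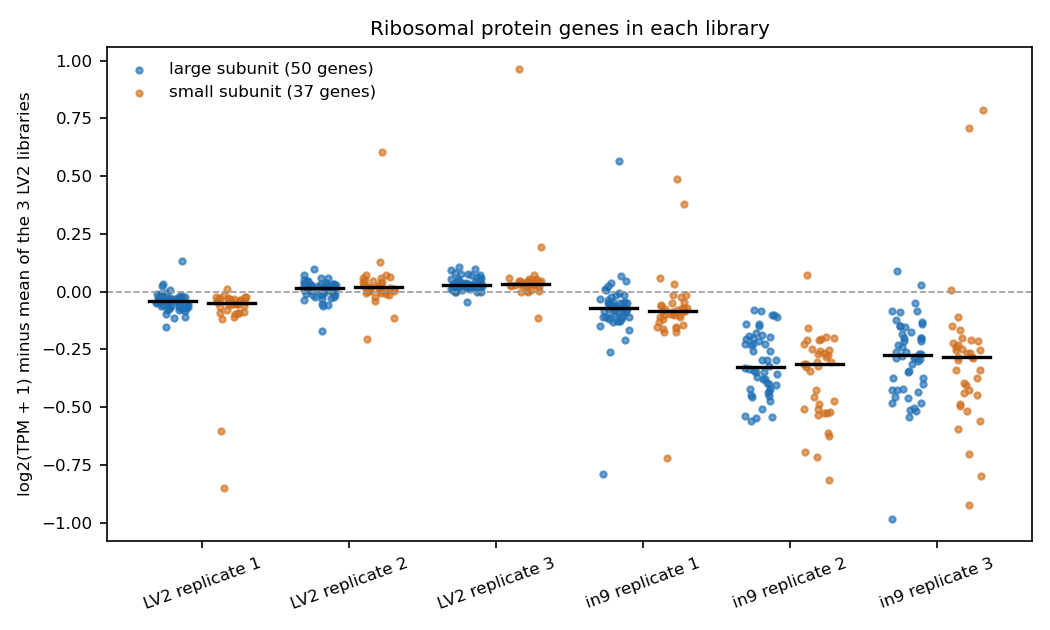
Each point is 1 ribosomal protein gene in 1 library (x axis), drawn as its log2(TPM + 1) minus the mean of the 3 LV2 libraries (y axis), in blue for 50 large and in orange for 37 small subunit genes, with black bars at the medians. The medians of in9 replicate 1 lie near -0.08 and those of in9 replicates 2 and 3 between -0.33 and -0.28, alike for both subunits.

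The large and the small subunit had nearly the same median difference. The median log2 fold change was -0.22 in the 50 large and -0.23 in the 37 small subunit genes, a difference of 0.011. That difference ranged from 0.00643 to 0.0209 over the alternatives tried and stayed smaller than the quartile range inside either subunit, which was -0.31 to -0.15 in the large and -0.33 to -0.18 in the small. No member was called in either, where 0.194% of all genes were called lower and 0.821% higher. At an unadjusted p under 0.05, 38 large and 30 small subunit genes were lower, against 5.86% of all genes. In 34 large and 27 small subunit genes every in9 library lay below every LV2 library, against 8.08% of all genes. With in9 replicate 1 left out, 40 large and 30 small subunit genes were called lower (3.68% of all genes were), with medians of -0.29 and -0.30.

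Summed levels gave the large subunit a slightly larger part in in9. Large subunit genes made up 7.33%, 7.59% and 7.71% of the TPM in the LV2 libraries and 7.17%, 6.07% and 6.21% in the in9 libraries, and small subunit genes 5.55%, 5.85% and 5.87% against 5.42%, 4.48% and 4.58%. The ratio of the sums, large over small, was 1.32, 1.30 and 1.31 in LV2 and 1.32, 1.35 and 1.36 in in9. Its mean was 1.31 ± 0.0122 in LV2 and 1.34 ± 0.0191 in in9 (SD, n = 3). The highest LV2 library (1.321) and in9 replicate 1 (1.322) were almost equal, so the group difference rests on in9 replicates 2 and 3. With rows of near-identical copies added to their parents the ratio was 1.37 in LV2 and 1.40 in in9. No test was run on these sums, since they are scores over the members.

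**Figure D2:**
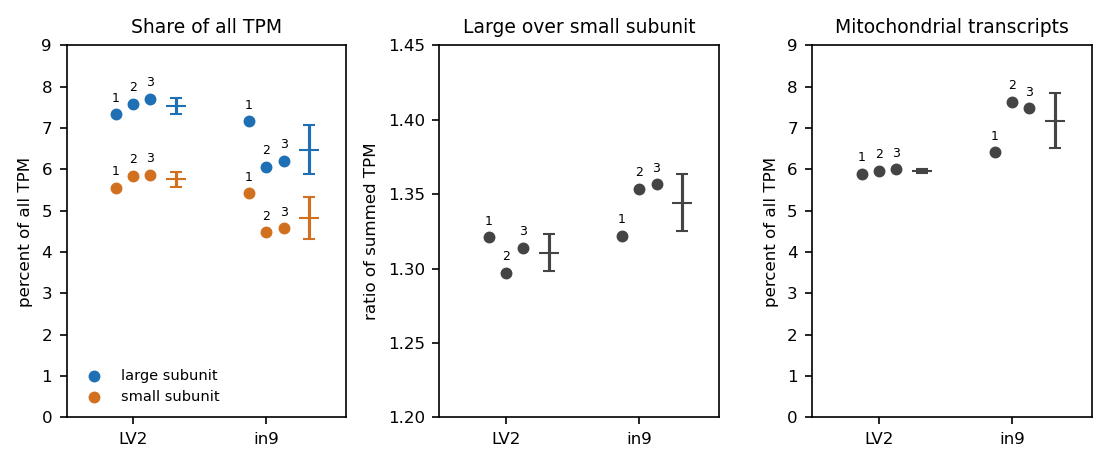
The left panel shows the percent of all TPM held by large (blue) and small (orange) subunit genes, the middle panel the ratio of the summed TPM of large over small subunit genes (axis from 1.2), and the right panel the percent held by mitochondrial transcripts, with 1 numbered point per library and mean ± SD of 3 beside them. In9 replicates 2 and 3 lie lowest in the left panel and highest in the others, and in9 replicate 1 lies nearer to LV2 in each.

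Rplp1, Rpl41 and Rpl23a were among the most abundant large subunit transcripts. Rplp1 encodes 1 of the acidic proteins of the P stalk, which recruits elongation factors, and stood at 5598, 5872 and 5890.1 TPM in LV2 and 5298, 4379 and 4462 TPM in in9. All in9 values were below all LV2 values, with in9 replicate 1 in between. The means were 5787 ± 164 and 4713 ± 509 TPM (SD, n = 3) and the fitted log2 difference was -0.30 ± 0.08 (SE) with an adjusted p of 0.121. Its partner Rplp2 was at 1379, 1348 and 1469.6 TPM in LV2 and 1336, 1074 and 1002 TPM in in9, again with in9 replicate 1 just below the lowest LV2 library. Rplp2 had a log2 fold change of -0.31 ± 0.11 (SE) with an adjusted p of 0.193. Rplp0, the scaffold on which both sit, was at 2783, 2839 and 2853 TPM in LV2 and 2727, 2667 and 2733 TPM in in9. Its values did not overlap between groups but lay close together, with a log2 fold change of -0.06 ± 0.03 (SE) with an adjusted p of 0.378, and 0.02 after quantile normalization. Leaving out in9 replicate 1 gave -0.39 (adjusted p = 0.0093) for Rplp1, -0.43 (adjusted p = 0.0171) for Rplp2 and -0.07 (adjusted p = 0.141) for Rplp0. The difference between stalk proteins was not tested.

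Rpl41, which encodes the shortest protein of the ribosome, was at 4258, 4287 and 4266 TPM in LV2 and 4125, 3308 and 3499.9 TPM in in9. The LV2 libraries lay close together and in9 replicates 2 and 3 were well below them, with a log2 fold change of -0.23 ± 0.08 (SE) with an adjusted p of 0.193. Rpl23a, whose protein lies at the exit of the nascent chain tunnel, stood at 3474, 3511 and 3616 TPM in LV2 and 3492, 3122 and 3241 TPM in in9. There in9 replicate 1 was inside the LV2 range and the fitted log2 difference was -0.11 ± 0.05 (SE) with an adjusted p of 0.307. Rpl8, a protein near the peptidyl transferase centre, was at 2139, 2229 and 2242 TPM in LV2 and 2035, 1910.0 and 1916 TPM in in9, without overlap and with a log2 fold change of -0.17 ± 0.04 (SE) with an adjusted p of 0.11.

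The most negative fitted value of a large subunit member belonged to Rpl37rt, a processed pseudogene row whose coding part is 99.7% identical to Rpl37. It stood at 344, 278 and 321 TPM in LV2 and 181, 233 and 158 TPM in in9, with in9 replicate 1 as low as the rest, and its fitted log2 difference was -0.73 ± 0.15 (SE) with an adjusted p of 0.0772. It was -0.70 (adjusted p = 0.0699) without in9 replicate 1. Rpl37 itself was at -0.26. Rpl14 came next (chr9:120571444-120574654), with 924, 963 and 985 TPM in LV2 and 799, 655 and 656 TPM in in9. In9 replicate 1 lay between LV2 and the other in9 libraries, and the fitted log2 difference was -0.45 ± 0.08 (SE) with an adjusted p of 0.0639. Rpl39, whose protein lines the exit tunnel, was at 744, 806 and 839 TPM in LV2 and 727, 546 and 558 TPM in in9 and differed by -0.39 ± 0.12 (SE) with an adjusted p of 0.145. Rpl10, the protein that joins the large subunit last and in the cytoplasm, was at 1099.5, 1261 and 1317 TPM in LV2 and 1057, 902 and 853 TPM in in9, with a log2 fold change of -0.39 ± 0.10 (SE) with an adjusted p of 0.119. Rpl14, Rpl39 and Rpl10 stood at -0.55 (adjusted p = 0.00574), -0.53 (adjusted p = 0.0139) and -0.48 (adjusted p = 0.0318) once in9 replicate 1 was left out.

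At the other end, Rpl10a and Rpl22l1 had the highest fitted values of the large subunit. Rpl10a was at 1270.4, 1189 and 1263 TPM in LV2 and 1273, 1172 and 1264 TPM in in9, with interleaved groups and a log2 fold change of -0.01 ± 0.05 (SE) with an adjusted p of 0.964, and its sign changed under quantile normalization and without the mitochondrial transcripts. Rpl5 and Rpl11 form a particle with the smallest ribosomal RNA, which can bind Mdm2 and so stabilise p53 when ribosome assembly fails. Rpl5 was at 340.2, 321 and 342 TPM in LV2 and 349.9, 312 and 301 TPM in in9, with overlapping groups and a log2 fold change of -0.06 ± 0.06 (SE) with an adjusted p of 0.627. Rpl11 was at 1382, 1474 and 1486 TPM in LV2 and 1377, 1061 and 1095 TPM in in9, without overlap, although in9 replicate 1 lay just under the lowest LV2 library. Its fitted log2 difference was -0.31 ± 0.10 (SE) with an adjusted p of 0.177. The difference between Rpl5 and Rpl11 was not tested, and most TPM of the Rpl5 family was listed on copies (described further on).

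Among small subunit genes Rps26, Rps27, Rps24 and Rps15 were the most abundant as deposited. With near-identical copies added (described further on), Rps2 and Rps28 had means of 4731 and 4023 TPM, above Rps26 with 3202 TPM. Rps26, which lies at the channel where messenger RNA leaves the ribosome, was at 3274, 3437 and 3475 TPM in LV2 and 3178, 2859 and 2958 TPM in in9. All in9 libraries were below all LV2 libraries and the fitted log2 difference was -0.18 ± 0.05 (SE) with an adjusted p of 0.142. Rps27 was at 3189.8, 3532 and 3462 TPM in LV2 and 3159, 2423 and 2618 TPM in in9, with in9 replicate 1 just under LV2 replicate 1, and differed by -0.32 ± 0.10 (SE) with an adjusted p of 0.163. Rps24, mutated in some patients with Diamond-Blackfan anaemia, was at 2956, 3009 and 3108 TPM in LV2 and 2932, 2382 and 2465 TPM in in9 and differed by -0.23 ± 0.08 (SE) with an adjusted p of 0.2. Rps15 was at 2890.2, 3042 and 2956 TPM in LV2 and 2819, 2455 and 2506 TPM in in9 and differed by -0.19 ± 0.06 (SE) with an adjusted p of 0.161. In each of these genes in9 replicates 2 and 3 were the lowest libraries, and without in9 replicate 1 the values were -0.22 (adjusted p = 0.0278), -0.43 (adjusted p = 0.0211), -0.32 (adjusted p = 0.0132) and -0.26 (adjusted p = 0.0166).

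The lowest fitted values of the small subunit were those of Rps13, Rps20, Rps15a and Rps29. Rps13 (chr7:116331505-116334195) was at 646, 641 and 693 TPM in LV2 and 584, 375 and 347 TPM in in9, with in9 replicates 2 and 3 far below LV2 and in9 replicate 1 nearer to it. The means were 659.9 ± 29.1 and 435 ± 129 TPM (SD, n = 3), and the fitted log2 difference was -0.64 ± 0.19 (SE) with an adjusted p of 0.146. Rps20 (chr4:3831334-3835665), the member with the 2 seed matches, was at 412, 426 and 438 TPM in LV2 and 376, 258 and 244 TPM in in9. In9 replicates 2 and 3 were again the lowest libraries, with a log2 fold change of -0.56 ± 0.16 (SE) with an adjusted p of 0.137. Rps15a was at 2255, 2488 and 2099 TPM in LV2 and 2146, 1474 and 1398 TPM in in9, where in9 replicate 1 was inside the LV2 range, and differed by -0.47 ± 0.16 (SE) with an adjusted p of 0.196. Rps29, the zinc finger protein of the subunit head, was at 2318, 2416 and 2481 TPM in LV2 and 2159.5, 1575 and 1594 TPM in in9 and differed by -0.45 ± 0.12 (SE) with an adjusted p of 0.13. Without in9 replicate 1 all of them were called, at -0.87 (adjusted p = 0.00574), -0.76 (adjusted p = 0.00523), -0.66 (adjusted p = 0.0163) and -0.60 (adjusted p = 0.00523).

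**Figure D3:**
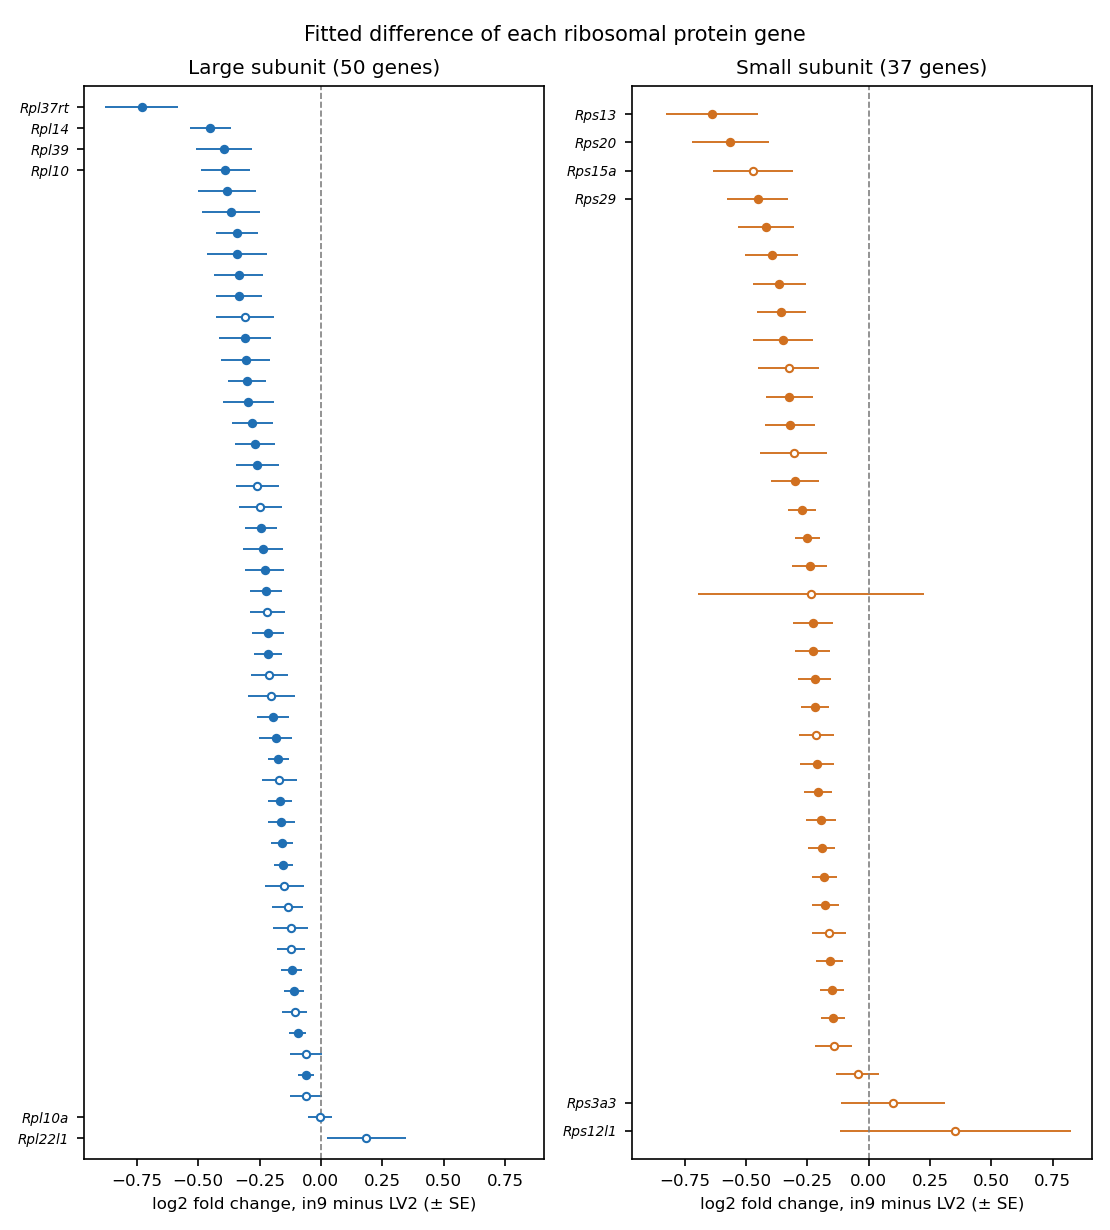
Log2 fold change, in9 minus LV2, with its standard error (x axis) for each large (left, 50) and small subunit gene (right, 37), ordered from lowest to highest, with the names of the 4 lowest and the 2 highest, where filled points mark genes whose in9 libraries all lie below all LV2 libraries. Values run from -0.73 (Rpl37rt) to 0.35 (Rps12l1), and all but Rpl22l1, Rps3a3 and Rps12l1 are below 0.

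Among other small subunit genes with a role of their own, Rps6, Rpsa, Rps4x and Fau lay closer to the median. Rps27a lay nearer to the lowest values. Rps6, the substrate of the S6 kinases that report mTOR activity, was at 1885, 2092 and 2050.2 TPM in LV2 and 1862, 1734 and 1731 TPM in in9. In9 replicate 1 was just below the lowest LV2 library and the fitted log2 difference was -0.18 ± 0.05 (SE) with an adjusted p of 0.16. Rpsa, also known as the laminin receptor, stood at 2472, 2597 and 2624 TPM in LV2 and 2457, 2237 and 2199.8 TPM in in9, again without overlap, and differed by -0.16 ± 0.05 (SE) with an adjusted p of 0.189. Rps4x, on the X chromosome, was at 1981, 2044 and 2095 TPM in LV2 and 1916, 1712 and 1736 TPM in in9 and differed by -0.19 ± 0.05 (SE) with an adjusted p of 0.138. Some ribosomal proteins are made as fusions to ubiquitin or a ubiquitin-like protein, and the members Fau and Rps27a, which encode such fusions, had lower values in every in9 library than in any LV2 library. Fau, which carries the ubiquitin-like part, was at 1598, 1671 and 1686 TPM in LV2 and 1587, 1336 and 1372 TPM in in9 with a log2 fold change of -0.21 ± 0.07 (SE) with an adjusted p of 0.185. Rps27a was at 996, 1131 and 1105 TPM in LV2 and 962, 742 and 730.5 TPM in in9 with a log2 fold change of -0.42 ± 0.11 (SE) with an adjusted p of 0.131.

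After Rpl14 the smallest adjusted p-values of the members belonged to Rps23, Rpl37rt and Rps3a1. Rps23, part of the decoding centre, was at 704, 730.2 and 722 TPM in LV2 and 645, 578 and 591 TPM in in9 and differed by -0.25 ± 0.05 (SE) with an adjusted p of 0.0765. Rps3a1 was at 1771, 1808 and 1843 TPM in LV2 and 1619, 1453 and 1428 TPM in in9 and differed by -0.27 ± 0.06 (SE) with an adjusted p of 0.0786. When protein-coding genes alone were tested, 3 members were called lower, namely Rpl14 (adjusted p = 0.0254), Rps23 (0.0394) and Rps3a1 (0.0417), against 0.769% of 11060 genes. Rps23 and Rps3a1 were named after their values were seen.

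Ratios of main genes to their paralogous or like-named members were compared in 8 pairs with exact permutation tests. With 3 against 3 libraries the two-sided p of such a test cannot fall below 0.1, so no pair could have been called. The smallest adjusted p of 0.32 in these permutation tests thus does not decide whether a ratio differed, and the ratios are given as descriptions. Rpl22l1 encodes a paralogue of Rpl22 that takes its place in some ribosomes, and Rpl22 protein is known to repress it. Rpl22 was at 1231, 1323 and 1339.5 TPM in LV2 and 1276, 934 and 964 TPM in in9, with in9 replicate 1 inside the LV2 range, and differed by -0.31 ± 0.12 (SE) with an adjusted p of 0.23. Rpl22l1 was at 111, 117 and 109 TPM in LV2 and 166, 105 and 119 TPM in in9, highest in in9 replicate 1, and differed by 0.18 ± 0.16 (SE) with an adjusted p of 0.554. Leaving out in9 replicate 1 gave -0.01. The ratio of Rpl22 to Rpl22l1 was 11.1, 11.3 and 12.3 in LV2 and 7.66, 8.93 and 8.08 in in9, so all in9 libraries lay below all LV2 libraries. The log2 ratio differed by -0.49 with an exact two-sided permutation p of 0.1, the smallest that 3 against 3 libraries allow, and of 0.32 adjusted over the 8 pairs compared. The ratio of Rpl7 to Rpl7l1, a paralogue with a place in ribosome assembly, was the other of 2 pairs without overlap, at 19.7, 20.4 and 18.6 in LV2 and 18.2, 18.5 and 18.1 in in9 (-0.10, exact permutation p = 0.1). Of single tested genes 8.08% had every in9 library below LV2 and 17.4% every in9 library above. No such share was computed for ratios, so 2 of 8 pairs are not read as standing out.

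In the remaining pairs the ratios of the groups overlapped. The levels of Rpl7 and Rpl7l1, whose ratio did not overlap, and of Rps19bp1, which was in no pair, are also given here. Rps27l, a paralogue of Rps27 and known target of p53, was at 491, 511 and 527 TPM in LV2 and 521, 371 and 361 TPM in in9 and differed by -0.31 ± 0.14 (SE) with an adjusted p of 0.285, and the ratio of Rps27 to it was 6.49, 6.91 and 6.57 in LV2 and 6.06, 6.52 and 7.25 in in9. Rpl36al was at 878, 945 and 966 TPM in LV2 and 933, 793 and 839 TPM in in9 and Rpl36a at 1019, 1125 and 1069.7 TPM in LV2 and 1078, 841 and 888 TPM in in9, which made the pair the most even, with ratios of 1.06 to 1.19. Their log2 fold changes were -0.12 ± 0.07 (SE) and -0.20 ± 0.10 (SE). Rpl7l1 was at 92.7, 94.3 and 102 TPM in LV2 and 99.4, 87 and 90.7 TPM in in9 and Rpl7 at 1830.5, 1927 and 1896 TPM in LV2 and 1813, 1609 and 1639 TPM in in9, with log2 fold changes of -0.06 ± 0.07 (SE) and -0.16 ± 0.05 (SE). Rps19bp1 was at 63.7, 66.1 and 65.5 TPM in LV2 and 74, 61.8 and 59.5 TPM in in9, highest in in9 replicate 1, with a log2 fold change of -0.01 ± 0.09 (SE).

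The rows Rps3a2, Rps3a3, Rps12l1 and Rps27rt have coding parts 98.9% to 100% identical to a main gene, so how reads were split among them is uncertain. Rps3a2 was at 367, 403 and 407 TPM in LV2 and 354, 272 and 274 TPM in in9, with in9 replicates 2 and 3 lowest as in Rps3a1, and differed by -0.40 ± 0.11 (SE) with an adjusted p of 0.135. Rps3a3 stayed between 1.05 and 2.07 TPM. Rps12l1 was at 40.6, 68.4 and 145 TPM in LV2 and 104, 63.9 and 128 TPM in in9 and Rps27rt at 8.43, 20.8 and 13.4 TPM in LV2 and 7.71, 7.87 and 22.4 TPM in in9. These last rows varied severalfold within each group, and their log2 fold changes were 0.35 ± 0.47 (SE) and -0.24 ± 0.46 (SE).

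Much of the TPM of these gene families was listed on rows of near-identical copies, which bears on every level given above. A copy was a row, not itself a member, that was annotated as a pseudogene or named as one (-ps). It was at least 95% identical to a member over at least 80% of that member's coding sequence. There were 559 such rows for 77 members, 553 annotated as pseudogenes and 6 as protein-coding, up to 56 for 1 member (Rpl21), and 86 of them, belonging to 46 members, had a mean of at least 1 TPM. In 21 members the parent held under 50% of the TPM of its family. Rps2, whose protein sits at the entry of the messenger channel, was at 94, 105 and 102 TPM in LV2 and 99.4, 89.7 and 84 TPM in in9, while its copies summed to 4687, 4863 and 4954 TPM in LV2 and 4718, 4299.8 and 4292 TPM in in9. The row Rps2-ps10 alone, 99.4% identical, held a mean of 4405 TPM. Rpl10-ps3, with a mean of 1884 TPM, and Rps18-ps6, with 2068 TPM, were among the copies annotated as protein-coding. Rps18 held a mean of 69.4 TPM against 2307 TPM for its copies, Rpl12 95.9 against 2011 TPM, and Rpl5 328 against 1346 TPM. Among core genes the deposited means ran from 69.4 TPM (Rps18) to 5250.0 TPM (Rplp1), a 75.7-fold range. With copies added they ran from 703.7 TPM (Rps19) to 5252 TPM, a 7.46-fold range, and the median was 1905 TPM in place of 1386 TPM. How reads that match several rows were assigned is not given in the sources used here.

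**Figure D4:**
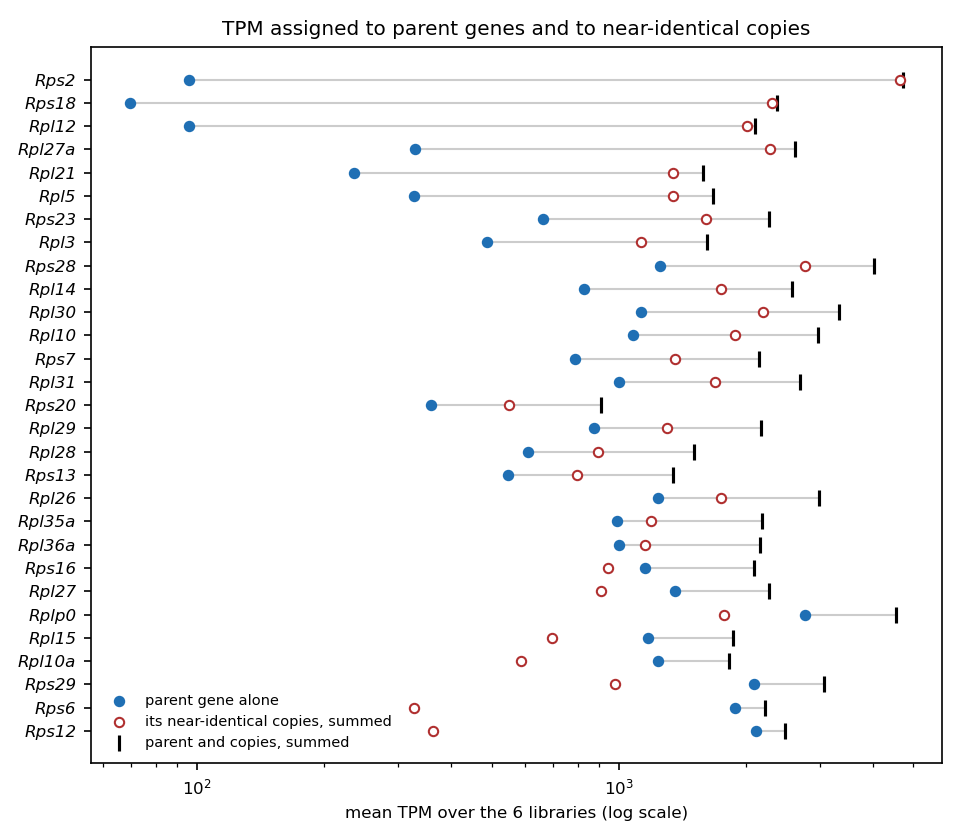
For the 29 members whose parent held under 90% of the family, the plot gives the mean TPM over 6 libraries on a log scale (x axis) of the parent gene alone (blue), of its near-identical copies summed (open red) and of both together (black ticks). Rps2, Rps18 and Rpl12 stand near or below 100 TPM alone and between 2107 and 4731 TPM with their copies.

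The split also touched the largest fitted values. The copy of Rpl14, Rpl14-ps1, was at 1716, 1705 and 1807 TPM in LV2 and 1787, 1745 and 1757 TPM in in9, with interleaved groups, whereas Rpl14 did not overlap. Parent and copy together were at 2639, 2668 and 2792 TPM in LV2 and 2586, 2400.4 and 2413 TPM in in9, with a log2 fold change of -0.13 (adjusted p = 0.193) in place of -0.45. The copies of Rps13 summed to 783, 822 and 798 TPM in LV2 and 787, 735 and 866 TPM in in9, and the family differed by -0.25 (adjusted p = 0.153) in place of -0.64. Rps20 and its copies differed by -0.38 (adjusted p = 0.159) in place of -0.56. In the other direction, Rpl5 and its copies were at 1721, 1755 and 1769 TPM in LV2 and 1683, 1562 and 1552 TPM in in9, without overlap, and differed by -0.13 (adjusted p = 0.181) in place of -0.06. Like-named members such as Rps3a2 and Rpl37rt stayed rows of their own in all sums. With the copies added to their parents, 0 members were called lower (0.225% of all genes). At an unadjusted p under 0.05, 72 were lower (5.74% of all genes), and the median log2 fold change was -0.23. That count of called members was 78 without in9 replicate 1, against 3.63% of all genes.

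Single copies of 1 parent could differ far more within a group than the family as a whole. Rpl35a has 5 copies with a mean of at least 1 TPM. Rpl35a-ps3 was at 0, 0.02 and 670.2 TPM in LV2 and 372, 17.8 and 242 TPM in in9 and Rpl35a-ps2 at 0, 314 and 391 TPM in LV2 and 194, 348 and 157 TPM in in9, and both were listed at or near 0 in at least 1 LV2 library and far higher in another. The family as a whole was at 2292, 2423 and 2534 TPM in LV2 and 2348, 1754 and 1754 TPM in in9, with in9 replicates 2 and 3 lowest and a log2 fold change of -0.32 (adjusted p = 0.21).

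As split here, features that the rule did not use set members apart by little. The 30 members that host small nucleolar RNAs (58 in all, 5 of them in Rpl4) had a median log2 fold change of -0.22, and the 58 others -0.22. The 15 members with a tract at the annotated start had a median of -0.28 and the 50 with a promoter but no tract there -0.21, with 15 of 15 and 49 of 50 negative. Within 10 bases of the start 38 of 65 members had a tract, so some of the 50 have one nearby. This split thus also depends on the exact annotated start and cannot decide whether the tract matters. Across the 88 members the log2 fold change was correlated with log2 transcript length at a Pearson r of -0.01 and a Spearman rho of 0.18, and with log2 mean TPM at -0.29 and -0.05. Across the 78 core members the values were 0.06 and 0.23 for length and -0.02 and 0.08 for level. All points come from the same 6 libraries, so these are descriptions.

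Genes that act with the ribosome gave smaller medians of the same sign, with 1 exception. Of 23 further genes with TOP messengers, mostly translation factors, 0 were called. In 18 the value was below 0, against 36.3% of all genes, and the median log2 fold change was -0.07 (0.06 over all genes). At an unadjusted p under 0.05, 7 were lower and 0 higher, where 5.86% and 13.6% of all genes were. Eif3e, a subunit of the initiation factor that binds the small subunit, was at 367, 371 and 369 TPM in LV2 and 325, 325 and 329.5 TPM in in9. Its groups lay clearly apart, in9 replicate 1 included, with a log2 fold change of -0.18 ± 0.03 (SE) with an adjusted p of 0.0669. Eef1g, of the elongation factor complex, differed by -0.15 ± 0.04 (SE) with an adjusted p of 0.14, and Impdh2, an enzyme of guanine nucleotide synthesis, by -0.12 ± 0.04 (SE) with an adjusted p of 0.16. Leaving out in9 replicate 1, 7 of the list were called lower and 2 higher, where 3.68% and 6.77% of all genes were.

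Of 44 ribosome biogenesis factors 1 was called lower and 0 higher, against 0.194% and 0.821% of all genes. Negative values were found in 39, against 36.3% of all genes, and the median was -0.11. At an unadjusted p under 0.05, 18 were lower and 1 higher, against 5.86% and 13.6% of all genes. The called gene, Nob1, encodes the nuclease that makes the final cut of small subunit RNA. It was at 105, 109 and 106 TPM in LV2 and 89.6, 88.9 and 90.8 TPM in in9, with all 3 in9 libraries alike and below LV2, and differed by -0.25 ± 0.04 (SE) with an adjusted p of 0.0494. Its adjusted p ranged from 0.0141 to 0.237 over the alternatives, and omitting any 1 of the other 5 libraries, in9 replicate 1 excepted, ended the call. Mrto4, which prepares the site of the P stalk on the large subunit, was at 135, 141 and 148 TPM in LV2 and 118, 109.5 and 115 TPM in in9 and differed by -0.31 ± 0.05 (SE) with an adjusted p of 0.0576. Rrs1, needed for the maturation of the large subunit, was at 105, 106 and 105 TPM in LV2 and 80.6, 89 and 88.6 TPM in in9, lowest in in9 replicate 1, and differed by -0.29 ± 0.05 (SE) with an adjusted p of 0.061. Without in9 replicate 1, 9 of the list were called lower and 1 higher, against 3.68% and 6.77% of all genes.

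RNA polymerase I transcribes the large ribosomal RNA precursor. Of 14 genes of this machinery 0 were called, 10 were negative (36.3% of all genes were) and the median was -0.05. At an unadjusted p under 0.05, 1 was lower and 0 higher, against 5.86% and 13.6% of all genes. The lower gene was Polr1d (-0.22 ± 0.08 (SE) with an adjusted p of 0.195). It was at 213, 219 and 219 TPM in LV2 and 210.2, 177 and 173 TPM in in9, with in9 replicates 2 and 3 well below the rest. Rrn3, the factor that ties the polymerase to growth signals, differed by -0.13 ± 0.06 (SE) with an adjusted p of 0.296, and Cd3eap by -0.19 ± 0.09 (SE) with an adjusted p of 0.308. Polr1d was called lower without in9 replicate 1, where 3.68% of all genes were.

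Of 17 regulators of ribosomal protein synthesis, chosen around mTOR, Myc and p53, 0 were called (against 0.194% of all genes lower and 0.821% higher). Values were positive in 12 and negative in 5, where 36.3% of all genes were negative. The median was 0.06, that of all genes. At an unadjusted p under 0.05, 2 were higher and 1 lower, shares near those of all genes (13.6% and 5.86%). Eif4ebp2, an inhibitor of cap-dependent initiation, was at 36, 35.9 and 34.4 TPM in LV2 and 38, 39.6 and 40.5 TPM in in9 and differed by 0.15 ± 0.05 (SE) with an adjusted p of 0.195. Trp53, which encodes p53, was at 29.8, 28.7 and 27.9 TPM in LV2 and 32.2, 31.7 and 31.6 TPM in in9 and differed by 0.14 ± 0.05 (SE) with an adjusted p of 0.214. Max, the partner of Myc, was at 82.6, 76.9 and 75.1 TPM in LV2 and 70.3, 70.3 and 73.3 TPM in in9 and differed by -0.13 ± 0.05 (SE) with an adjusted p of 0.246. The groups did not overlap in any of the 3, which were picked for the smallest p-values of the list. Of all tested genes 17.4% had every in9 library above LV2 and 8.08% every in9 library below.

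Mitochondrial ribosomal proteins are encoded in the nucleus by another set of genes and do not join the cytosolic ribosome. Of 78 tested, 0 were called and 64 were negative (36.3% of all genes were), with a median of -0.09. At an unadjusted p under 0.05, 20 were lower and 1 higher, against 5.86% and 13.6% of all genes. Without in9 replicate 1, 18 were called lower and 0 higher, against 3.68% and 6.77% of all genes. Their summed share was 0.610%, 0.614% and 0.620% in the LV2 libraries and 0.608%, 0.534% and 0.543% in the in9 libraries, the same order of libraries as for the cytosolic set. Mrpl37 was at 53.4, 52.5 and 54.2 TPM in LV2 and 44.5, 44.1 and 44 TPM in in9 and differed by -0.27 ± 0.04 (SE) with an adjusted p of 0.0544. Mrpl20 differed by -0.33 ± 0.06 (SE) with an adjusted p of 0.067 and Mrps18a by -0.33 ± 0.07 (SE) with an adjusted p of 0.0812. The difference between the cytosolic and mitochondrial sets was not tested.

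**Figure D5:**
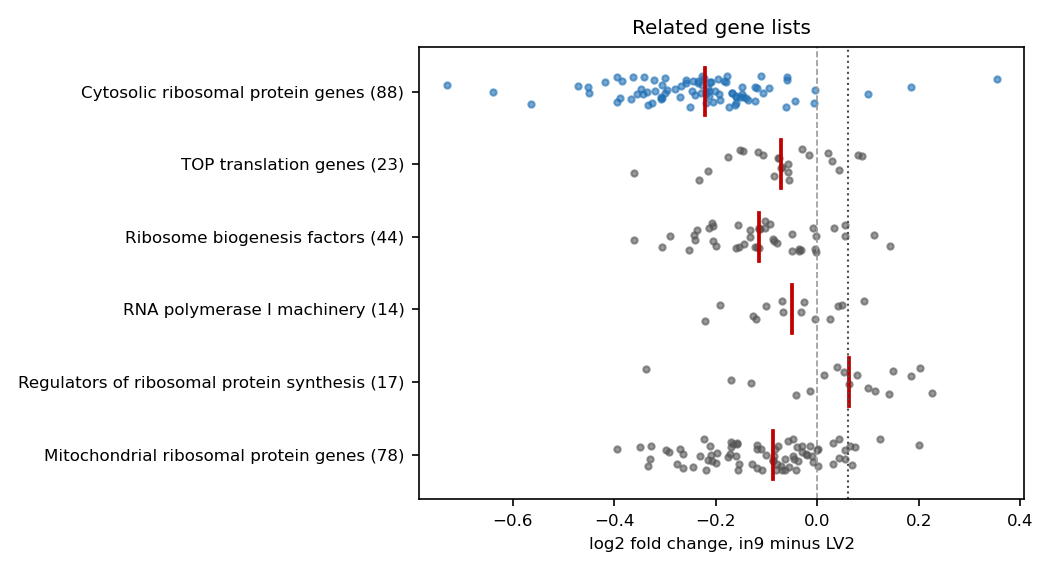
Log2 fold changes, in9 minus LV2 (x axis), of single genes (points) in the cytosolic ribosomal protein genes and in 5 related lists (rows, number of genes in parentheses), with red bars at the medians, a dashed line at 0 and a dotted line at the median of all tested genes, 0.06. The cytosolic set has the lowest median, -0.22, and the regulators lie at the median of all genes.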

How the data were processed

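RNA of 4T1 cells was sequenced in 6 libraries (3 LV2, 3 in9). The authors deposited TPM values for 56448 genes, with transcript length in the same table. The genome build was mm10, per the submitters' processing notes. Aligner, quantifier and annotation: not given in the sources used here. No counts were used. Depth and counting error could thus not be judged, and count models were not applied.

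All 13406 genes whose mean reached 1 TPM entered the fit, on the log2(TPM + 1) scale, with limma (version 3.58.1, under R 4.3.3). The prior variance followed an intensity trend and the contrast was in9 minus LV2, two-sided. Benjamini-Hochberg adjustment covered all of them, and calls were made at an adjusted p under 0.05. Fold changes on this scale understate changes of low genes. In simulated data with 200 changed genes among 13406 in 5 runs, the fit recovered 59.8% of those changed 1.5-fold and 83.4% of those changed 2-fold. Of all calls, 3.83% were false. The changed genes were drawn from those above about 5 TPM, and the noise was independent between genes. Shifts shared by many genes of a library, and changes as small as the median of the members, were not simulated. These rates thus do not describe the test on the members.

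Coordinates and 3′ UTRs came from GENCODE M21 (GRCm38, the assembly that mm10 names), which matched 88 of 88 members, and promoters and the microRNA from RefSeq. Copies annotated or named as pseudogenes were found with blastn of coding sequences (at least 95% identity over 80%). Rows that were members, or overlapped one, were not counted as copies. Alternatives were another pseudocount (0.1), no filter or a minimum of 5 TPM, trimmed-mean scaling (30% of M, 5% of A), quantile normalization, removal of mitochondrial transcripts, protein-coding genes alone, no trend, weights for each library, the replicate number as a block, and omission of each library. Sums with these copies were added after the data were seen.

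Named genes were, per subunit, the 4 with the highest mean TPM, the 4 with the lowest and the 2 with the highest fold change. To these were added members with a special role, like-named members beside their main copies, and up to 3 genes with the smallest p-values of each related list. Some results under this rule are not reported here. The members and lists were chosen with earlier results of these data known. No test was run on a list as a whole.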

Additional observations from a re-analysis of the deposited data

How the results depend on the processing

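The median log2 fold change of the members stayed between -0.31 and -0.15, and the large and small subunit medians stayed within 0.0209 of each other, under every alternative tried. Counts of calls did not stay: the count of members called lower, 0 in the report, was 72 with library weights, 3 with protein-coding genes alone, 0 to 70 with 1 library left out (70 without in9 replicate 1) and 78 with copies summed and in9 replicate 1 left out. The count at an unadjusted p under 0.05, 68, was 44 after quantile normalization and 29 to 80 with 1 library left out. It was lower without LV2 replicates 2 and 3 and without in9 replicates 2 and 3 (33, 29, 30 and 32). With the replicate block 0 members were called, 54 had a negative value with an unadjusted p under 0.05 (4.51% of all genes), and 1 gene was called in each direction over all genes. Libraries of the same number did not deviate together (correlations of -0.097, 0.022 and -0.046), so the numbers were not taken as pairs. With copies summed, the ratio of large to small was 1.37 in LV2 and 1.40 in in9, and the share of all TPM 17.9% and 15.3%. The LV2 share was 14.2% without mitochondrial transcripts. Over all genes 26 were called lower and 110 higher, and 35 and 86 after trimmed-mean scaling.

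In the related lists, the TOP list had 0 to 7 lower and 0 to 2 higher calls with 1 library left out, 6 lower with library weights, 1 with protein-coding genes alone, and 8 lower and 2 higher with copies summed and in9 replicate 1 left out. Biogenesis factors, with 1 lower call in the report, had 0 with a pseudocount of 0.1, without a filter, without mitochondrial transcripts, without the trend and with the replicate block. They had 2 with a minimum of 5 TPM, trimmed-mean scaling or quantile normalization, 4 with protein-coding genes alone, 12 with library weights, 0 to 9 lower and 0 to 1 higher with 1 library left out, and 9 and 1 with copies summed and in9 replicate 1 left out. RNA polymerase I genes had 1 lower call with library weights and 0 to 1 with 1 library left out. They had 1 with copies summed and in9 replicate 1 left out. Regulators had 0 to 1 higher calls with 1 library left out and 1 in that last setting. Mitochondrial ribosomal protein genes had 1 lower call with a minimum of 5 TPM, 15 with library weights, 5 with protein-coding genes alone, 0 to 18 with 1 library left out and 18 in that last setting. Over all genes, lower calls made up 3.9% with library weights, 0.769% with protein-coding genes alone and 3.68% without in9 replicate 1. The cause of these changes was not tested.

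Values near 0 changed sign. Rpl10a was 0.091 after quantile normalization, 0.013 without mitochondrial transcripts and -0.036 to 0.033 with 1 library left out. Rplp0 was 0.016 after quantile normalization and Rps19bp1 0.013 without mitochondrial transcripts. With 1 library left out Rps19bp1 ranged from -0.10 to 0.055, Rpl22l1 from -0.0057 to 0.33, Rps3a3 from -0.039 to 0.22, Rps12l1 from -0.071 to 0.83 and Rps27rt from -0.71 to 0.066. With copies summed and in9 replicate 1 left out, Rpl22l1 was -0.013 and Rps3a3 -0.039. Without counts, the precision that depth gives cannot be stated.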
